A study of Homo sapiens with 12 samples.

Results

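Cystatins are the protein inhibitors of papain-like cysteine proteases, and 6 of their genes were followed here with those of 2 such proteases, cathepsins B and L. The 8 genes, CST1, CST2, CST3, CST4, CST6, CSTB, CTSB and CTSL, were taken by name from a table of 58735 genes, and all 8 passed the filter on low counts that left 17468 genes for testing. They were selected on earlier results of these same libraries, among them the log2 fold changes of CST1 and CST4 in hepatic co-culture, so their differences, and the number of them past the threshold of the fit over all genes, are given only as a description and test nothing. RNA was sequenced from tissue made of the breast cancer line MDA-MB-231, labelled with green fluorescent protein and set in fibrin gel in a perfused AngioPlate, a culture plate in which several tissues share a flow of medium. In the monoculture group the cancer tissue was alone, in the hepatic co-culture it shared the plate with tissue of HepG2, a hepatoma line, mixed with 2% lung fibroblasts, and in the cardiac co-culture with cardiomyocytes derived from induced pluripotent stem cells mixed with 2% cardiac fibroblasts. Each group had 4 libraries, called biological replicates in the labels, and RNA was taken on day 5 after seeding of the cancer cells. The cancer tissue is 1 established line in all 12 libraries, and the labels do not say which cultures or seedings the replicates came from, so every spread and p-value below measures only the variation between these libraries.

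Secreted cystatins of type 2 (cystatin C, E/M and the S-type cystatins of saliva) carry a signal peptide and act outside the cell or after uptake, whereas stefins such as cystatin B lack one and act in the cytosol and nucleus. As a family they bind the active site of papain-like cathepsins reversibly. How strongly each cystatin followed here inhibits cathepsin B or L was not measured. Cathepsins B and L degrade protein in the lysosome and, when secreted by tumour cells, also cleave extracellular matrix.

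The libraries held 35.0 to 42.0 M counts (M for 1e+06) in monoculture, 26.2 to 42.4 M in hepatic co-culture and 27.0 to 37.4 M in cardiac co-culture. Cardiac replicate 4 stood apart: along principal component 1 (28.5% of variance) it lay at -24.9, among the monoculture libraries at -51.1 to -22.3, while cardiac replicates 1 to 3 lay at 6.79 to 16.3. It was also the only library with counts of the cardiomyocyte genes MYH6 (21 counts) and MYL7 (8 counts), so cardiac values are given with and without it. Markers of the line were present at 7 of 7 genes, and the hepatocyte gene ALB held 0 to 14 counts in monoculture, 0 to 6 in hepatic and 0 to 4 in cardiac co-culture. Of 15 hepatocyte markers only SERPINA1 averaged 1 CPM or more (counts per 1e+06 after TMM scaling). Its mean was 57.4 CPM in monoculture, 46.5 in hepatic and 82.0 in cardiac co-culture. The 14 cardiomyocyte markers summed to 2.30 to 3.35 CPM in monoculture, 0.776 to 2.10 in hepatic and 1.28 to 4.55 in cardiac co-culture. These sums overlapped between cardiac co-culture and monoculture. MYL2 and NPPA held 45 and 43 counts in the series and were at 0 in only 4 and 2 libraries. The 12 fibroblast markers summed to 36.3 to 44.6, 30.5 to 56.1 and 42.6 to 54.5 CPM in monoculture, hepatic and cardiac co-culture. The monoculture, where the cancer tissue was alone, thus held a like sum. Single markers moved in opposite directions within it. Of 7 tested, COL3A1 and COL1A2 were called higher in hepatic co-culture than in monoculture (log2 fold change 2.84 ± 0.91 and 1.55 ± 0.41, SE). COL3A1 held only 140 counts in the series and was at 0 in 2 libraries. DCN was called lower (-3.10), so that 42.9% were called beside 28% of all genes. In cardiac co-culture against monoculture 0 of the 7 were called, beside 8.26% of all genes. Without cardiac replicate 4 only PDGFRB was called, as lower (-0.98 ± 0.29, SE), beside 19.1% of all genes. The part of fibroblasts in any result was not tested.

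CST1, CST2 and CST4 encode cystatins SN, SA and S, secreted inhibitors best known from saliva and tears. They lie on the minus strand of chromosome 20 in the type 2 cystatin cluster (GRCh38, GENCODE release 29): CST4 (ENSG00000101441) at chr20:23685640-23689040, CST1 (ENSG00000170373) at chr20:23747553-23751268 and CST2 (ENSG00000170369) at chr20:23823769-23826731. Their coding sequences have 423 bases each and align without gaps. CST1 and CST4 are identical at 92.7% of positions, CST2 and CST4 at 92.4%, and CST1 and CST2 at 91.3%, whereas CST1 and CST3 are identical at 69.6%. Counts of these 3 genes depend on how reads that match several places were treated, and the sources used here do not give this. Of all 423 coding positions, 373 are identical in the 3 genes. Of the 50 that differ, CST2 stands alone at 19, CST1 at 18 and CST4 at 13. Of all 50-base windows of the transcript, 27.3% in CST1, 30.2% in CST4 and 8.30% in CST2 also occur in another transcript of the cystatin and cathepsin families, and with 100-base windows these shares are 8.02%, 8.13% and 0%. The sources used here do not give the read length.

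CST1 was higher in every hepatic library than in any other library. The monoculture libraries, replicates 1 to 4, held 3.27, 7.30, 7.59 and 5.77 CPM (118, 286, 329 and 208 counts). The hepatic libraries held 67.7, 69.99, 58.6 and 28.5 CPM (1919, 2963, 1710 and 744 counts), and the cardiac libraries 8.06, 12.9, 8.36 and 5.0 CPM. The lowest hepatic library, replicate 4, thus lay above the highest of the other 8. Monoculture and cardiac values overlapped only through cardiac replicate 4, since cardiac replicates 1 to 3 lay above the highest monoculture library. Fewer cells of a kind and less RNA per cell cannot be told apart in such bulk libraries. The means were 5.98 ± 1.98 CPM in monoculture, 56.2 ± 19.1 in hepatic and 8.59 ± 3.26 in cardiac co-culture (SD, n = 4). The log2 fold change of hepatic co-culture over monoculture was 3.23 ± 0.39 (SE), or 9.36-fold, and that of cardiac co-culture 0.50 ± 0.39, or 0.70 ± 0.39 without cardiac replicate 4.

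CST4 gave the same picture at a like level. Its values were 6.31, 7.89, 5.91 and 10.1 CPM in monoculture and 66.2, 88.5, 55.8 and 44.2 CPM in hepatic co-culture. Cardiac libraries held 8.61, 16.9, 11.05 and 9.34 CPM. Hepatic libraries again did not overlap with either other group, and cardiac replicates 1 and 4 lay within the monoculture range while 2 and 3 lay above it. The log2 difference was 3.08 ± 0.29 (8.44-fold) in hepatic and 0.60 ± 0.28 in cardiac co-culture (0.69 ± 0.31 without replicate 4), both against monoculture.

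CST2, the least abundant of the 3, was at 1.33, 2.195, 1.29 and 1.83 CPM in monoculture, from 48 to 86 counts. In hepatic co-culture it was at 8.79, 11.2, 5.99 and 4.02 CPM (105 to 474 counts) and in cardiac co-culture at 1.36, 1.55, 1.71 and 2.21 CPM (37 to 84 counts). The hepatic libraries again lay above all others, and the cardiac mean of 1.71 ± 0.37 CPM was close to the monoculture mean of 1.66 ± 0.43 (SD, n = 4). The log2 difference of hepatic co-culture from monoculture was 2.18 ± 0.28 (4.53-fold), and that of cardiac co-culture 0.05 ± 0.29, or -0.11 ± 0.32 without replicate 4. In all 3 genes replicate 4 was the lowest hepatic library, while the highest was replicate 2.

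**Figure D1:**
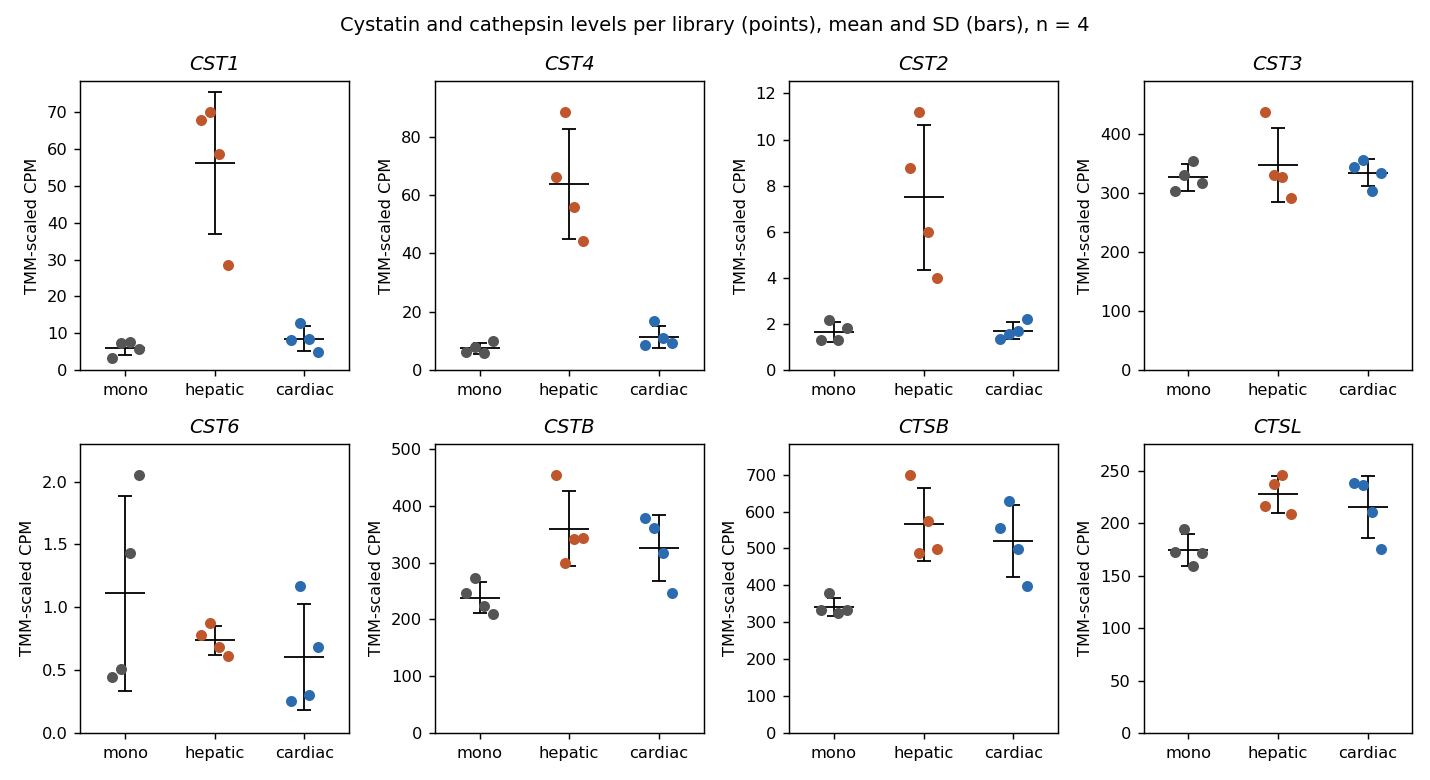
TMM-scaled CPM (vertical axis, linear from 0) of the 6 cystatins and 2 cathepsins in each library (points), with the mean (long line) and SD (bars) of 4 libraries in monoculture (mono), hepatic and cardiac co-culture. The hepatic points of CST1, CST4 and CST2 lie above all others, those of CST3 lie among them, and the lowest cardiac point of CSTB, CTSB and CTSL is replicate 4.

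Among all 17468 genes tested, ordered by the log2 difference between hepatic co-culture and monoculture, CST1 held rank 14 from the top, CST4 rank 20 and CST2 rank 94. Cardiac co-culture differed from hepatic by -2.72 ± 0.39, -2.48 ± 0.28 and -2.13 ± 0.29 on the log2 scale for CST1, CST4 and CST2, and without cardiac replicate 4 by -2.52 ± 0.40, -2.38 ± 0.32 and -2.28 ± 0.31. Read as 1 unit, which leaves aside how shared reads were split among them, the 3 genes summed to 10.9 to 17.7 CPM in monoculture, 76.6 to 169.7 in hepatic and 16.6 to 31.4 in cardiac co-culture. The hepatic sums did not overlap with the others, and the log2 difference of the summed counts was 3.07 ± 0.30 in hepatic and 0.51 ± 0.29 in cardiac co-culture. The make-up of this sum was similar in the 3 groups for CST4, at 50.1%, 50.6% and 52.6% in monoculture, hepatic and cardiac co-culture. CST2 took 8.74 to 12.6% of it in monoculture and 4.98 to 6.60% in hepatic co-culture, without overlap, and 4.94 to 13.4% in cardiac co-culture.

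The other genes of the chromosome 20 cluster, apart from CST3, had no counts. Within chr20:23439685-23990454, GENCODE lists 10 protein-coding genes of the family, and 6 of them (CSTL1, CST11, CST8, CST9L, CST9 and CST5) had 0 counts in all 12 libraries, as had the 7 cystatin pseudogenes there. A count of 0 allows a level of up to 0.0707 to 0.114 CPM per library (3 counts, counting error only). The 4 genes with counts follow each other in the order CST3, CST4, CST1 and CST2 over 200 kb, with gaps of 47.2, 58.5 and 72.5 kb. CST5, beyond CST2, encodes cystatin D, the remaining salivary cystatin. Its coding sequence is 71.1% identical to that of CST1.

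CST3 (ENSG00000101439, chr20:23626706-23638473, minus strand) encodes cystatin C, the widely expressed secreted inhibitor measured in blood as a marker of kidney filtration. It was at 303, 331, 356 and 318 CPM in monoculture. Hepatic libraries held 438, 332, 328 and 293 CPM and cardiac libraries 345, 356, 305 and 335 CPM. The groups overlapped, with hepatic replicate 1 the highest library and hepatic replicate 4 the lowest. The log2 difference from monoculture was 0.09 ± 0.10 in hepatic and 0.04 ± 0.10 in cardiac co-culture (0.04 ± 0.11 without replicate 4). The neighbour of CST4 in the cluster thus showed no difference of the size seen for CST1, CST2 and CST4. A non-coding gene on the same strand within CST3, AL121894.2, held 406 counts, 0.30% of those of CST3.

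CST6 (ENSG00000175315, chr11:66011841-66013505, plus strand) encodes cystatin E/M, which inhibits legumain as well as papain-like cathepsins and is known to be silenced in many breast tumours. It was scarce in this line, with 0.443, 0.510, 1.43 and 2.05 CPM in monoculture (16 to 74 counts). Hepatic libraries held 0.776, 0.874, 0.685 and 0.612 CPM, and cardiac libraries 0.257, 1.17, 0.305 and 0.684 CPM. All groups overlapped, and the monoculture libraries alone spread over more than the whole hepatic range. The log2 difference from monoculture was -0.58 ± 0.51 in hepatic and -0.88 ± 0.52 in cardiac co-culture (-0.96 ± 0.58 without replicate 4), so a difference of this size could not be told from the spread at this depth.

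CSTB (ENSG00000160213, chr21:43772511-43776445, minus strand) encodes cystatin B, or stefin B, the cytosolic inhibitor of cathepsins B, H, L and S. Monoculture libraries held 247, 272, 223 and 210.0 CPM. Hepatic libraries held 455, 299, 342 and 344 CPM, all above monoculture, and cardiac libraries 378, 362, 316 and 247 CPM, of which replicate 4 lay within the monoculture range. The log2 difference from monoculture was 0.59 ± 0.15 (1.51-fold) in hepatic and 0.45 ± 0.15 in cardiac co-culture, or 0.56 ± 0.12 without cardiac replicate 4. The other human stefin gene, CSTA, had 16 counts in the whole series and 0 in 8 libraries.

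The 2 cathepsins were on average higher beside both partner tissues, in hepatic co-culture by smaller factors than CST1 and CST4. CTSB (ENSG00000164733, chr8:11842524-11869448, minus strand) encodes cathepsin B, which cleaves inside proteins and trims dipeptides from their C-terminus. It was at 333, 378, 324 and 333 CPM in monoculture. Hepatic libraries held 699.998, 487, 576 and 498 CPM, and cardiac libraries 556, 628, 498 and 398 CPM. The monoculture libraries lay below all 8 others. The log2 difference was 0.72 ± 0.13 (1.65-fold) in hepatic and 0.60 ± 0.13 (1.52-fold) in cardiac co-culture, or 0.71 ± 0.11 in cardiac co-culture without replicate 4.

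CTSL (ENSG00000135047, chr9:87725519-87731393, plus strand) encodes cathepsin L, an endopeptidase of the lysosome. It was at 173, 195, 159 and 171 CPM in monoculture, 217, 238, 246 and 209 in hepatic co-culture and 238, 237, 211 and 175 in cardiac co-culture. Hepatic libraries lay above monoculture, and cardiac replicate 4 again lay within it. The log2 difference was 0.38 ± 0.09 (1.30-fold) in hepatic and 0.30 ± 0.09 (1.23-fold) in cardiac co-culture, or 0.39 ± 0.08 without cardiac replicate 4. Its coding sequence is 83.2% identical to that of CTSV, the closest relative, but only 1.15% of its 50-base windows occur in another transcript of these families.

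The following counts describe the choice of the genes as much as the libraries. By the quasi-likelihood test of edgeR, adjusted after Benjamini and Hochberg over all genes at a threshold of 0.05, 6 of the 8 genes were past the threshold and higher in hepatic co-culture than in monoculture (all but CST3 and CST6), beside 14.4% of all genes tested that were called higher and 28% called in either direction. In the same 6 the libraries did not overlap, against 15.1% of all genes with the higher direction. In cardiac co-culture against monoculture 2 were called higher, CTSB and CTSL, beside 4.93% of all genes, and 0 were called lower, beside 3.33%. Only CTSB did not overlap, against 7.77% of all genes with the higher direction and 7.47% with the lower. CSTB, not called there, was called without cardiac replicate 4 (beside 19.1% of all genes in either direction) or hepatic replicate 1, and with DESeq2, no low-count filter or a replicate block. Between the co-cultures 3 were lower in cardiac (CST1, CST2 and CST4), beside 2.91% of all genes, and the same 3 did not overlap, against 5.92% of all genes. Since these contrasts were in view when the genes were chosen, nothing is read from the counts. The CTSB and CTSL calls in cardiac co-culture each depended on single libraries: CTSB lost its call without monoculture replicate 1, 3 or 4 or cardiac replicate 1 or 2 (log2 0.50 to 0.71 over all 12 omissions), and CTSL was called only without monoculture replicate 2, hepatic replicate 1 or cardiac replicate 4 (0.25 to 0.39). The hepatic and cardiac comparisons share the 4 monoculture libraries.

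**Figure D2:**
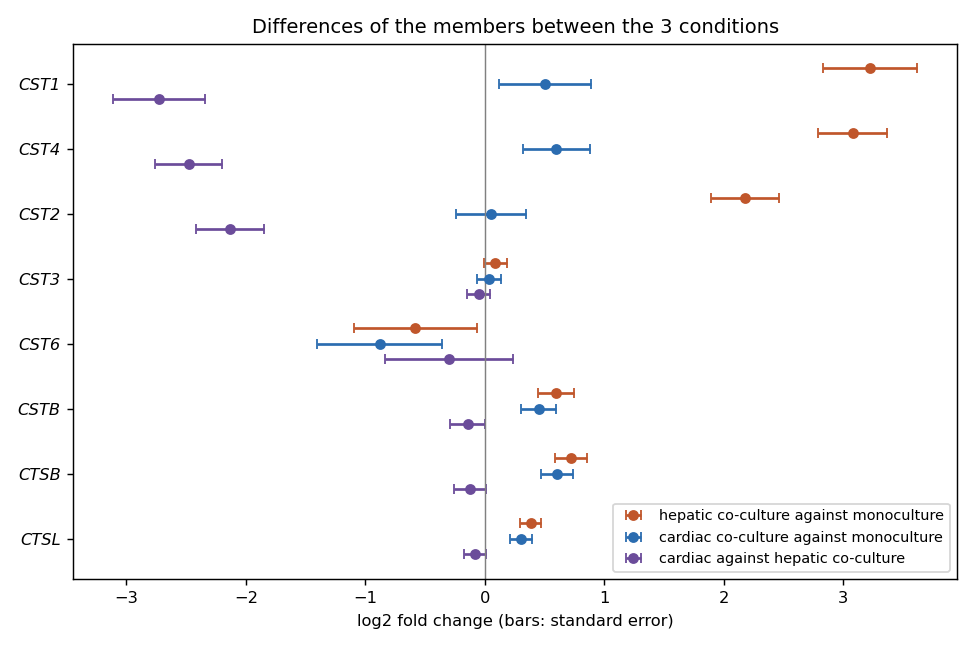
Log2 fold change with its standard error (bars) of the 8 genes, for hepatic co-culture against monoculture, cardiac co-culture against monoculture, and cardiac against hepatic co-culture. CST1, CST4 and CST2 lie at 3.23, 3.08 and 2.18 in the first of these and at -2.72, -2.48 and -2.13 in the last, while CSTB, CTSB and CTSL lie between 0.30 and 0.72 in both co-cultures.

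Levels of different genes can be compared only per length, and the order depends on which length is taken. The union of all annotated exons is 3695 bases for CST3, 3935 for CSTB and 7428 for CTSB, but the shortest full-length coding transcript is 832, 2164 and 1389 bases, while CST2, CST4 and CST6 have the same length both ways. Per kb of exon union, CST4 and CST1 in hepatic co-culture (84.7 and 64.4 CPM per kb) came near CST3 (94.1) and CSTB (91.5), from 10.1 and 6.86 beside 88.5 and 60.5 in monoculture. Per kb of 1 coding transcript, CST3 stood far above all other cystatins, at 393 CPM per kb in monoculture and 418 in hepatic co-culture. CSTB followed at 110.1 and 166, and CST1 and CST4 reached 85.8 and 84.7 CPM per kb in hepatic co-culture, from 9.14 and 10.1. With either length CST1 and CST4 differed in hepatic co-culture by less than the spread between libraries, and CST6 was the lowest cystatin in every group.

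The share of CST1, CST2 and CST4 in the summed cystatin level per kb was thus higher in hepatic co-culture with both lengths, but its size was not fixed. Per exon union it was 11.3 ± 2.11% in monoculture, 45.4 ± 8.09% in hepatic and 13.5 ± 2.84% in cardiac co-culture (SD, n = 4), or 13.9% there without replicate 4. Per coding transcript it was 4.06 ± 0.80%, 23.4 ± 5.61% and 5.20 ± 1.28%. The hepatic libraries did not overlap with the others either way, at 36.6 to 56.1% or at 17.4 to 30.8%. The ratio of the summed cystatin level to the summed CTSB and CTSL level was 1.42 ± 0.10, 2.00 ± 0.30 and 1.26 ± 0.08 per exon union in monoculture, hepatic and cardiac co-culture. Per coding transcript it was 1.43 ± 0.12, 1.35 ± 0.14 and 1.13 ± 0.13, so hepatic co-culture was above monoculture with the first length and within its spread with the second. No change of the balance between inhibitors and proteases at the RNA level can therefore be read from the hepatic libraries. The mean cardiac ratio was below that of monoculture with both lengths. Per exon union the cardiac libraries, at 1.21 to 1.37, overlapped with monoculture at 1.35 to 1.56. This overlap came only from cardiac replicate 4, at 1.37, and the other cardiac libraries lay below monoculture. Per coding transcript they lay at 1.04 to 1.32, below monoculture at 1.35 to 1.61. These ratios are a description with no test, and they weigh all cystatins alike, whatever their strength against CTSB and CTSL.

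**Figure D3:**
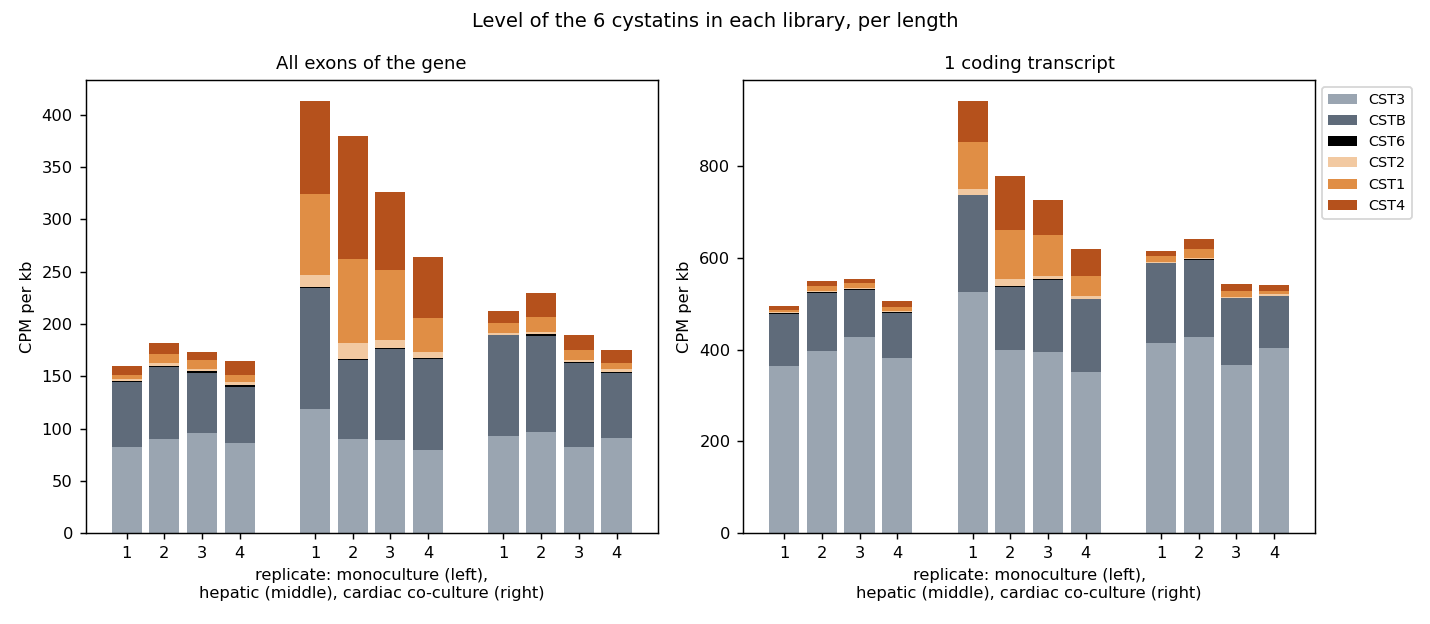
Stacked level of the 6 cystatins in each library, in CPM per kb of all exons of the gene (left) and per kb of 1 coding transcript (right), with replicates 1 to 4 of monoculture, hepatic and cardiac co-culture from left to right in each panel and separate vertical axes from 0. CST1, CST2 and CST4 (orange shades) take 36.6 to 56.1% of the hepatic bars on the left and 17.4 to 30.8% on the right.

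Genes with a profile most like these were sought among 11617 other protein-coding genes with mean logCPM above 1, by the root mean square difference of logCPM over the 12 libraries after each gene's mean was removed. Nearest to CST4 were SHISA3 (0.37), ITGB3 (0.45) and TP63 (0.49), and nearest to CST1 were ITGB3, SHISA3 and ENPP3 (0.58 each). SHISA3 averaged 11.1 ± 3.22 CPM in monoculture, 65.9 ± 10.1 in hepatic and 15.9 ± 2.50 in cardiac co-culture. ITGB3, an integrin subunit, averaged 9.94 ± 2.82, 66.0 ± 16.0 and 23.4 ± 7.73 CPM. Among the 8 genes themselves the closest pair was CSTB and CTSB (0.11), an inhibitor with its protease, followed by CSTB and CTSL (0.19) and CTSB and CTSL (0.21), while CST1 and CST4 were 0.40 apart and CST1 and CST6 were 1.60 apart. CTSL had very close neighbours, NPEPPS and NAP1L1 (0.06 each) and BRWD1 (0.07). Those of CST6 were CST7, AQP3 and SPTB (0.52 each), distances that were not small beside the spread of CST6 itself between libraries. The distances are not scaled by how much each gene varied, so genes that varied little, such as CSTB, CTSB and CTSL, lie close together. A smaller distance than that of CST1 and CST4 is thus no sign of a closer link. All these distances describe these libraries and carry no test.

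Other genes of the system, taken as 6 lists of 79 genes of which 64 were tested, were then tested in the same fit. These lists, too, were chosen with earlier results of these data known. The shares called beside all genes are therefore a description of the lists and no test of them. The lists cover other cystatins, other cysteine cathepsins with legumain, other lysosomal proteases, lysosomal hydrolases, lysosomal membrane and sorting proteins, and inhibitors of other protease classes. In hepatic co-culture against monoculture 21 of the 64 rose and 15 fell, 56.3% in all, beside 28% of all genes tested. Their median log2 difference was 0.04, beside 0.01 over all genes tested. In cardiac co-culture against monoculture 11 rose and 1 fell, 18.8% beside 8.26% of all genes, with a median of 0.10 beside 0.01. Without cardiac replicate 4 these counts were 19 and 5, beside 19.1% of all genes. Between the co-cultures 8 were higher and 1 lower in cardiac, 14.1% beside 6.18% of all genes, and without cardiac replicate 4 these were 5 and 1, beside 4.79%.

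Of the cystatin family outside the 6, only CST7 passed the filter, 1 of 12 genes. It encodes cystatin F, an inhibitor of immune cells that is targeted to lysosomes, and it averaged 3.15 ± 1.10 CPM in monoculture, 1.97 ± 1.17 in hepatic and 1.68 ± 0.69 in cardiac co-culture. The log2 difference was -0.66 ± 0.39 in hepatic and -0.91 ± 0.39 in cardiac co-culture and neither passed (edgeR, quasi-likelihood, adjusted p = 0.229 and 0.158). Without hepatic replicate 2 the hepatic difference was -1.16 (adjusted p = 0.0289, edgeR).

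Of the 10 other cysteine cathepsins and legumain, 4 rose and 2 fell in hepatic co-culture, with a median log2 difference of 0.25 beside 0.01 over all genes. This is 60% called, beside 28% of all genes. CTSC, the dipeptidyl peptidase that activates granule serine proteases, averaged 178 ± 20.2 CPM in monoculture, 289 ± 9.59 in hepatic and 212 ± 27.4 in cardiac co-culture. It rose by 0.70 ± 0.09 on the log2 scale in hepatic co-culture (adjusted p = 3.06e-05, edgeR), and its cardiac difference of 0.25 ± 0.09 did not pass (0.0887). CTSO rose by 0.75 ± 0.13 (adjusted p = 2.93e-04), from 11.9 ± 1.47 to 20.1 ± 1.64 CPM. CTSF rose by 0.61 ± 0.15 (0.00757) and LGMN, the asparaginyl endopeptidase legumain that processes cathepsins, by 0.38 ± 0.06 (2.20e-04). CTSZ, a carboxypeptidase, fell by 0.33 ± 0.07 (0.00243), from 324 ± 19.5 to 258 ± 14.2 CPM. CTSS, an endopeptidase that matures MHC class II molecules, fell by 0.72 ± 0.25 (0.0418) but lost its call without monoculture replicate 3 or 4, hepatic replicate 2, 3 or 4 or cardiac replicate 1, with adjusted p up to 0.136. CTSH (0.04), CTSK (0.44), CTSV (0.12) and CTSW (-0.41) did not pass, with adjusted p from 0.252 to 0.873.

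In cardiac co-culture 3 of these 10 rose and 0 fell, with a median of 0.20 beside 0.01 over all genes. This is 30% called, beside 8.26% of all genes. CTSO rose by 0.47 ± 0.13 (adjusted p = 0.0290, edgeR), CTSF by 0.51 ± 0.15 (0.0486) and LGMN by 0.22 ± 0.06 (0.0350), and these calls were lost in 5, 9 and 7 of 12 single omissions, with adjusted p up to 0.105, 0.143 and 0.109. Leaving out monoculture replicate 3 or 4 or cardiac replicate 1, 2 or 3 ended all 3 calls, monoculture replicate 1 or 2 also those of CTSF and LGMN, and hepatic replicate 2 or 3 also that of CTSF. Without cardiac replicate 4, 5 of the 10 rose, beside 19.1% of all genes called: CTSC (0.34), CTSF (0.61), CTSK (0.90), CTSO (0.54) and LGMN (0.22). Tested directly, cardiac co-culture differed from hepatic for CTSC by -0.45 ± 0.09 (adjusted p = 0.00534), a call kept in all 12 omissions, and for CTSZ by 0.25 ± 0.07 (0.0426), a call lost without monoculture replicate 1 or 4, hepatic replicate 2, 3 or 4 or cardiac replicate 1, 2 or 4 (adjusted p up to 0.114). For the other 8 the difference between the co-cultures did not pass, except that CTSS passed without hepatic replicate 1 (log2 0.92, adjusted p = 0.0212).

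**Figure D4:**
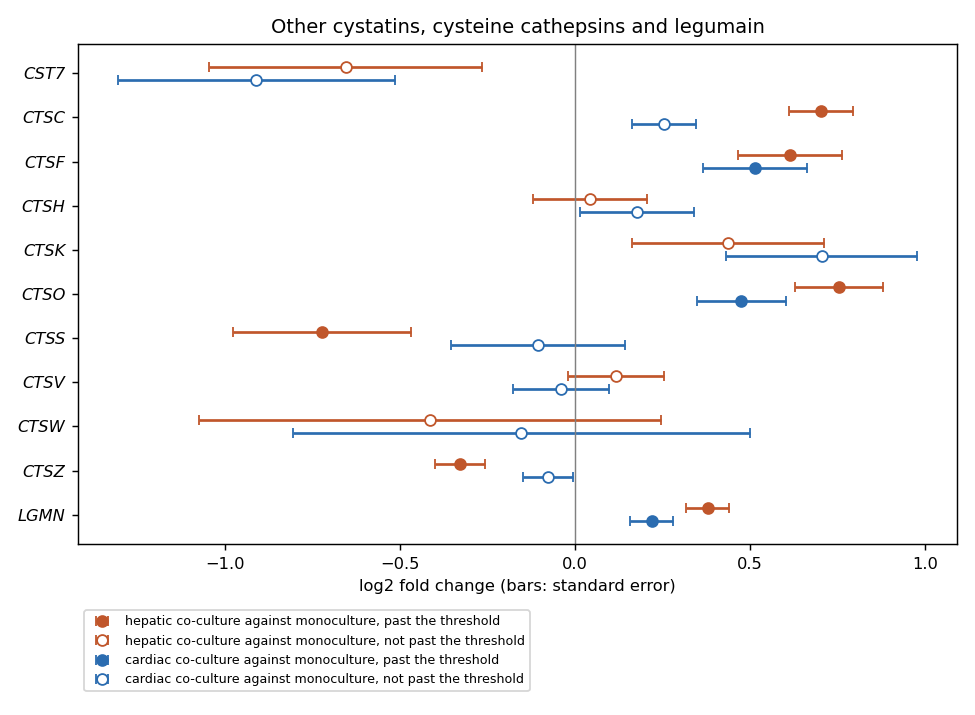
Log2 fold change with its standard error (bars) of CST7, 9 other cysteine cathepsins and legumain in hepatic and cardiac co-culture against monoculture, filled where past the edgeR threshold. CTSC, CTSF, CTSO and LGMN are filled to the right of 0 in hepatic co-culture and CTSS and CTSZ to the left, and CTSF, CTSO and LGMN are filled in cardiac co-culture.

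Of 7 other lysosomal proteases tested, 3 rose and 1 fell in hepatic co-culture (median -0.08) and 1 rose in cardiac co-culture. These are 57.1% and 14.3% called, beside 28% and 8.26% of all genes. TPP1, a tripeptidyl peptidase, rose by 0.60 ± 0.13 in hepatic (adjusted p = 0.00447, edgeR) and by 0.60 ± 0.13 in cardiac co-culture (0.0191). DPP7, a dipeptidyl peptidase, rose by 0.42 ± 0.09 in hepatic co-culture (0.00185). CTSD, the aspartic cathepsin D, fell by 0.38 ± 0.12 there (0.0226). Its mean was 520.2 ± 63.9 CPM in monoculture and 400.4 ± 81.0 in hepatic co-culture, hepatic replicate 1 at 521.5 CPM lay within the monoculture range, and the call was lost without monoculture replicate 3 or 4 or hepatic replicate 2, 3 or 4 (adjusted p up to 0.0722). Cardiac co-culture was higher than hepatic for CTSD by 0.43 ± 0.12 (0.0351), a call lost without hepatic or cardiac replicate 2, 3 or 4 (adjusted p up to 0.105).

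Of 20 lysosomal hydrolases, 8 rose and 2 fell in hepatic co-culture (median 0.12) and 4 rose in cardiac co-culture (median 0.13). These are 50% and 20% called, beside 28% and 8.26% of all genes. PSAP, the precursor of the saposins, which help to degrade sphingolipids, averaged 1681, 2484 and 2166 CPM in monoculture, hepatic and cardiac co-culture. It rose by 0.56 ± 0.09 (adjusted p = 2.53e-04, edgeR) and 0.37 ± 0.09 (0.0234). GUSB, beta-glucuronidase, rose by 0.38 ± 0.07 (0.00106) and 0.32 ± 0.07 (0.0154), and ARSB, arylsulfatase B, fell by 0.59 ± 0.11 in hepatic co-culture (9.77e-04). GAA, acid alpha-glucosidase, rose by 0.92 ± 0.17 in hepatic (0.00260) and 0.70 ± 0.17 in cardiac co-culture (0.0323). LIPA, lysosomal acid lipase, was higher in cardiac than in hepatic co-culture by 0.23 ± 0.07 (0.0419), a call kept only without monoculture replicate 3 or cardiac replicate 4 (adjusted p up to 0.103 in the other 10 omissions).

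Of 17 lysosomal membrane and sorting genes, 3 rose and 7 fell in hepatic co-culture (median -0.17), and 1 rose and 1 fell in cardiac co-culture (median 0.00). These are 58.8% and 11.8% called, beside 28% and 8.26% of all genes. SORT1, which encodes sortilin, a carrier of enzymes to the lysosome, fell by 0.60 ± 0.07 in hepatic co-culture (adjusted p = 6.78e-06, edgeR), from 424 ± 17.9 to 280.0 ± 20.2 CPM. GNPTAB, the enzyme that starts the mannose 6-phosphate tag, fell by 0.39 ± 0.07 (4.06e-04). NPC1, the lysosomal cholesterol carrier, rose by 0.55 ± 0.09 in hepatic (2.69e-04) and 0.37 ± 0.09 in cardiac co-culture (0.0221). MITF, a transcription factor that drives lysosomal genes, fell by 0.69 ± 0.14 in hepatic (0.00121) and by 0.76 ± 0.14 in cardiac co-culture (0.00616), the latter a call kept in all 12 omissions. Between the co-cultures, SORT1 (0.54 ± 0.07, adjusted p = 3.44e-05) and IGF2R, the mannose 6-phosphate receptor (0.36 ± 0.08, 0.00953), were higher in cardiac in all 12 omissions, and ATP6V0D1, a proton pump subunit (0.33 ± 0.10, 0.0482), lost its call without monoculture replicate 2 or 4 or hepatic or cardiac replicate 2, 3 or 4 (adjusted p up to 0.150).

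Of 9 inhibitors of other protease classes tested, 3 rose and 3 fell in hepatic co-culture (median 0.09) and 2 rose in cardiac co-culture (median 0.25). These are 66.7% and 22.2% called, beside 28% and 8.26% of all genes. SLPI, a secreted inhibitor of leukocyte elastase, went the opposite way to the salivary cystatins, from 8.89 ± 1.32 CPM in monoculture to 2.41 ± 0.41 in hepatic co-culture. It fell by 1.88 ± 0.17 on the log2 scale (adjusted p = 6.11e-07, edgeR) and stood at 10.6 ± 1.54 CPM in cardiac co-culture. Cardiac co-culture was higher than hepatic by 2.13 ± 0.17 for SLPI (adjusted p = 1.72e-07, edgeR), in all 12 omissions. SERPINB1 rose by 0.29 ± 0.07 (0.00556) and 0.27 ± 0.07 (0.0296) in hepatic and cardiac co-culture. SERPINB4, whose reads may be shared with the near-identical SERPINB3, rose in hepatic (2.39 ± 0.66, 0.0110) and cardiac co-culture (2.57 ± 0.65, 0.0250) at very low counts, 0 to 10 per monoculture, 10 to 22 per hepatic and 17 to 25 per cardiac library. Of the calls of cardiac co-culture against monoculture named here, only that of MITF was kept in every single omission. Cardiac replicate 2 ended all of the others, GUSB included (adjusted p = 0.0637), and cardiac replicate 1 and monoculture replicate 3 ended all but that of GUSB. Outside the cathepsins, monoculture replicate 1 also ended those of NPC1, GAA, SERPINB1, PSAP and TPP1, and monoculture replicate 4 and cardiac replicate 3 those of NPC1, GAA, SERPINB1 and SERPINB4, with adjusted p up to 0.110.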

How the data were processed

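The authors deposited raw counts of reads per Ensembl gene, not normalized, for 58735 genes in 12 libraries made from poly(A) RNA. HISAT2 2.2.1, featureCounts 2.0.6, DESeq2 1.42.0 and build GRCh38 are named, per the submitters' processing notes, without order or settings. Not given in the sources used here are the annotation release, read length, strand setting and treatment of multi-mapping reads. Per the labels' protocols there was both a strand-specific and a non-strand-specific library, so reads of overlapping genes cannot be told apart. No batch is named in the labels. All 58735 identifiers were found in GENCODE release 29, which supplied symbols, positions, exon lengths and the coding sequences compared.

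From these counts, edgeR 4.0.16 (limma 3.58.1, R 4.3.3) gave TMM-scaled CPM and the robust quasi-likelihood test (two-sided) after filterByExpr, with all 12 libraries fitted together and group as the only factor, with Benjamini-Hochberg adjustment over 17468 genes (threshold 0.05). These genes held 99.9% of counts, and the common dispersion gave a biological coefficient of variation of 14.9%. Simulated counts with known changes were used to check the fit. Intervals given for counts of 0 cover counting error only. Alternatives were DESeq2 1.42.0, its size factors, upper-quartile scaling, no filter, a replicate block, only the groups compared, CST1, CST2 and CST4 summed, and each library left out. A level per length of 1 coding transcript in place of the exon union was added after the data were seen. The 8 genes, the lists and the tests were chosen with earlier results of these data known. The text names all 8 genes, all tested genes of the cystatin and cysteine cathepsin lists, up to 3 genes with the smallest adjusted p past the threshold of each other list per comparison, and the 3 nearest profiles of CST1, CST4, CST6 and CTSL, except that 1 inhibitor gene and the sequences themselves are not reported here.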

Additional observations from a re-analysis of the deposited data

Results flagged for a closer look

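For 8 other pathway genes, cardiac co-culture differed from hepatic co-culture by a direct test of the difference (edgeR). On the log2 scale, cardiac minus hepatic, the differences were -0.45 for CTSC, 0.25 for CTSZ, 0.43 for CTSD, 0.23 for LIPA, 0.36 for IGF2R, 0.54 for SORT1, 0.33 for ATP6V0D1 and 2.13 for SLPI. With a replicate block, CTSZ (adjusted p = 0.0693), CTSD (0.0802), LIPA (0.0745) and ATP6V0D1 (0.0779) no longer passed. Nor did CTSZ (0.0835), LIPA (0.101) and ATP6V0D1 (0.0930) when only the 2 groups compared were fitted. With upper-quartile scaling LIPA and ATP6V0D1 (0.051 each) did not pass either. CST1, CST2 and CST4 were selected on these data, and their differences of -2.72, -2.13 and -2.48 are a description with no test.

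In 6 of 111 groups of 4 libraries examined, 1 library lay far from the other 3 by Dixon's criterion at 95%, and chance marks about 1 group in 20. Hepatic replicate 1 was high for CTSD (521.5 CPM, the others 355 to 369) and for ATP6V0D1 (69.9 CPM, the others 51.8 to 54.4). Monoculture replicate 2 was high for NPC1 (193 CPM, the others 176 to 177), and monoculture replicate 4 for IGF2R (464 CPM, the others 425 to 426). Cardiac replicate 2 was high for SLPI (12.9 CPM, the others 9.71 to 10.01) and for SERPINB4 (0.945 CPM, the others 0.579 to 0.623).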

How the results depend on the processing

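Hepatic against monoculture differences of CST1, CST4 and CST2 ranged from 3.02 to 3.44, 2.87 to 3.24 and 1.91 to 2.38 over all alternatives in which each was a feature of its own, and cardiac against hepatic ones from -2.98 to -2.52, -2.71 to -2.28 and -2.33 to -1.87. Per coding transcript in place of exon union, the share of these 3 genes was 4.06%, 23.4% and 5.20% in monoculture, hepatic and cardiac co-culture, and the ratio of cystatins to cathepsins 1.35 in hepatic and 1.13 in cardiac co-culture. Genes called in cardiac co-culture against monoculture were 1443, with DESeq2 2279 and with no low-count filter 2219. Upper-quartile scaling moved the higher share of these calls from 59.7% to 72.2%. Leaving out single libraries gave 3660 to 5529 genes called for hepatic, 263 to 3378 for cardiac co-culture against monoculture and 676 to 1269 between co-cultures, and 27 to 38, 1 to 24 and 5 to 13 of the other pathway genes. Of the 8 genes, 0 to 3 were then called in cardiac co-culture against monoculture, and 1 when only the 2 groups compared were fitted, while 6 and 3 were called in the other comparisons in every omission. With CST1, CST2 and CST4 summed, 1 was called between co-cultures, since they then formed 1 feature. A replicate block gave 4660, 1310 and 891 genes called and 5 other pathway genes between co-cultures. Libraries with the same replicate number in the labels did not vary together (12 correlations from -0.08 to 0.11, 1 of them over 0.1, and 3 of 12 libraries closest to their own number), so this number was not taken to pair them. The replicate block used the same number. The library names carry other numbers, and pairing by these was not checked. Without single libraries some small differences changed sign. Hepatic against monoculture these were CST3 (-0.042 to 0.16), CTSH (-0.049 to 0.16) and CTSW (-0.96 to 0.0017). Cardiac against monoculture they were CST2 (-0.11 to 0.21), CTSS (-0.28 to 0.063), CTSV (-0.12 to 0.058) and CTSW (-0.71 to 0.27). Between co-cultures they were CST3 (-0.13 to 0.079), CST7 (-0.48 to 0.25), CTSF (-0.21 to 0.032), CTSL (-0.13 to 0.014) and CTSW (-0.29 to 0.80). The cause was not tested. Depth limits what can be said of CST6, CST7, CTSW, SERPINB4 and COL3A1, which had few counts per library.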
